A study of Mus musculus with 40 samples.

Results

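The repeat copies described here are the mouse endogenous retrovirus copies of murine leukaemia virus type. They were taken by repeat name: a copy was kept if any element of its name was MuLV-int (the internal, gene-carrying part) or began with RLTR4_ (the long terminal repeats, LTRs, and a further internal part). The rule uses no measured value and kept 407 of the 835636 repeat copies in the deposited table. Of these, 236 are named RLTR4_MM-int, 64 MuLV-int, 62 RLTR4_MM-int with RLTR4_Mm, 22 RLTR4_Mm, 19 MuLV-int with RLTR4_Mm, and 4 carry other compound names. Copies on the same chromosome with gaps of up to 500 bases were joined into 329 elements, called proviruses below, since neighbouring copies can be parts of the same element. The number was 384 with gaps of up to 100 bases and 300 with gaps of up to 2000 bases.

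YUMM1.7 is a mouse melanoma line of C57BL/6 origin with mutant Braf and without Cdkn2a. Poly(A) RNA came from this line and from cells of the tumours that it formed over serial transfers between mice. The 40 libraries fall into 11 groups. In order of passage they are 3 cultures of the starting YUMM1.7 cells, 4 tumours of passage F0 and 4 of F1, 5 each of F2 and of N2.1, 3 each of N2.2 and of N2.3, 4 of Balb/c-1, 3 of Balb/c-2, a second library from each of those 3 (called Balb/c-2 rep2), and 3 tumours of CBA. Balb/c and CBA are inbred mouse strains. Not given in the sources used here are the meaning of N2 and the strain, age and sex of the hosts. Letters name different tumours of a passage, and no group received a drug. All cells grew in the same serum-containing medium, the tumour-derived ones for 1 to 3 passages in culture. Each passage was made once, so p-values say nothing of a second run of the passage. In the main fit they rest on how libraries vary within groups, pooled over all 11 groups. That pool includes the 3 YUMM1.7 cultures, and both libraries of each Balb/c-2 tumour enter it as if independent. Libraries were sequenced in more than 1 year, and no label assigns a library to a year, so year and group cannot be told apart. The column names of the 3 CBA and the 3 Balb/c-2 rep2 libraries, and of no others, carry a sequencing run, flow cell and lane, which sets these 6 apart from the rest.

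Gammaretroviruses of this type entered the mouse germ line repeatedly, and a full copy has an LTR at either end with the gag, pol and env genes between them. The LTR holds the promoter at the 5′ end and the signal for polyadenylation at the 3′ end, and reverse transcription starts from a transfer RNA bound just downstream of the 5′ LTR. In many somatic cells these copies are silenced by DNA methylation and by Trim28 with the histone methyltransferase Setdb1. The zinc finger protein Zfp809 leads both to the primer binding site of some of them. Melanoma lines of C57BL/6 origin are known to release leukaemia virus products.

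The sequences shown here are the parts of these copies that start, prime and end a transcript, and the places where host transcripts run into the 2 copies with the highest signal. All are read 5′ to 3′ on the transcribed strand, in mm10 (GRCm38) coordinates, from RefSeq promoter windows (the first 5, assembly GRCm38.p6) or from GENCODE M21 transcripts. RefSeq windows span 250 bases before to 50 after a start. Of these, 32 of the 32851 windows, for 30 gene symbols, overlap a copy of the set. Capitals mark TATAAA in the first 3, the 18 bases of the primer binding site in the fourth, bases inside the annotated copy at the 3 junctions, and AATAAA at the transcript end.
Gm42031 start, chr8:85131824-85131853, minus strand: gctccccagcccTATAAAaagggtaaaaac
Gm43305 start, chr14:54297498-54297527, minus strand: gctccccagcccTATAAAaagggtaaaaac
Gm40814 start, chr11:8920810-8920839, plus strand: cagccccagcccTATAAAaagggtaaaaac
Gm33887 window, chr1:182257811-182257840, plus strand: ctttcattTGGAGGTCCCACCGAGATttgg
D17H6S56E-5 window, chr17:35000728-35000757, minus strand: tcgggctgctccaagTGAAAGACCCCACCA
AI506816, splice into the provirus, chr5, minus strand: cttccagaagagaagGCCCTCCAAGCAGTA
Cep85 exon entering the provirus, chr4:134164688-134164717, minus strand: gatgttaagtctgttTGAAAGACCCCCGAG
Cep85 transcript end, chr4:134164112-134164141, minus strand: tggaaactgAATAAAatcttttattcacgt

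The letters TATAAA lie 27 bases before the RefSeq start in the Gm42031 and Gm43305 windows and 30 bases before it in the Gm40814 window. TATAAA was searched on both strands, and 5 of the 32 overlapping windows and 13.6% of all RefSeq windows hold it. The 3 proviruses with these starts had little signal (means of 9.50, 1.94 and 1.06). The Gm33887 window lies in the provirus at chr1:182257120-182266100, whose values are given below. Its primer binding site has the letters known for the glutamine transfer RNA type of endogenous, nonecotropic proviruses. It was located by CATTTGG, which 3.39% of all windows hold on either strand. The D17H6S56E-5 window runs into the single LTR at chr17:35000213-35000742, also described below. An annotated AI506816 transcript splices from a host exon into the provirus, where its last exon covers 2701 bases. An annotated Cep85 transcript instead runs through the edge: its last exon has 55 host bases and then 591 bases in the provirus. AATAAA starts 21 bases before the end of the Cep85 transcript, and 23.3% of the 141767 GENCODE transcripts have it in their last 30 bases. A match of letters is a description and shows no activity of the site.

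Each library held 1280522 to 2976730 recovered reads in repeat copies, of which 16513 to 41009 fell in the 407 copies. The unit throughout is the deposited signal, reads per copy divided by 1 factor per library, so that 1 read was worth 0.659 to 1.51. Reads fall in repeats only, so host genes can be followed only through repeat copies in their exons. By that measure the melanocyte list (4 of 13 genes have such copies) stood at group means of 9.54 to 23.7, nearly all of it Pax3, while Tyr, Mlana and Oca2 were near 0. The fibroblast list (5 of 9 genes, nearly all Pdgfra and Pdgfrb) stood at 1143 to 2040 and was highest in the YUMM1.7 cultures themselves. The immune list (7 of 12 genes) stood at 0.217 to 7.37 and the endothelial list (3 of 7) at 0 to 1.74. The sources used here do not say how reads that map to several copies were counted. Near-identical copies may therefore exchange signal.

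The signal was concentrated in few copies. Over the 40 libraries, 1 of the 407 copies was at 0, 302 averaged above 0 and up to 1, 61 averaged 1 to 5, and 43 reached the mean of 5 needed for a test. Of those 43, 13 averaged at least 100 and 5 at least 1000. The test therefore speaks for 43 copies (21 RLTR4_MM-int with RLTR4_Mm, 8 MuLV-int with RLTR4_Mm, 8 RLTR4_MM-int, 3 RLTR4_Mm, 2 MuLV-int and 1 RLTR30B_MM with RLTR4_MM-int), and a copy active in a single group may have passed because of that group. The 3 copies just outside the limit averaged 4.42, 4.81 and 4.87, and the 3 just inside it 5.50, 5.50 and 6.35. By place in GENCODE M21, the 42 copies that overlap an annotated exon held 60.2% of the signal, the 131 in introns 36.8% and the 234 between genes 2.97%.

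The 3 highest proviruses held 88.7% of the signal of all 407 copies (81.0% to 91.1% by library) and the 12 highest held 97.4% (95.7% to 98.0%). The highest was the provirus in AI506816 at chr5:23700579-23709245, 8667 bases long, with a mean signal of 13424, or 1549 per kb. Next came 3 copies within the centrosomal protein gene Cep85 at chr4:134159391-134164702 (5715, or 1076 per kb) and 2 copies in an intron of Camk2b, which encodes a subunit of calcium/calmodulin-dependent kinase II (3439, or 587 per kb). The Camk2b pair, MuLV-int and RLTR4_MM-int each with RLTR4_Mm, is 5864 bases long, and its copies overlap at chr11:6008771-6008773. Per kb the fourth was the single LTR at chr17:35000213-35000742, 530 bases long, at 548, ahead of the short copy in an exon of 2610021A01Rik at chr7:41611707-41611941 (279) and the copy in an AU020206 intron at chr7:75777623-75779900 (207). The other 6 of the 12 stood at 12.9 to 60.2 per kb: those in Gm10524 at chr18:82693551-82702430, in the chromatin remodeller gene Chd9 at chr8:90886291-90891958, in introns of the glycosyltransferase gene Galnt11 at chr5:25230699-25239670 and of Rsrc1 at chr3:67096078-67103794, in an exon of the methyltransferase gene Ntmt1 at chr2:30811685-30815635, and between genes at chr4:133095957-133101623.

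**Figure D1:**
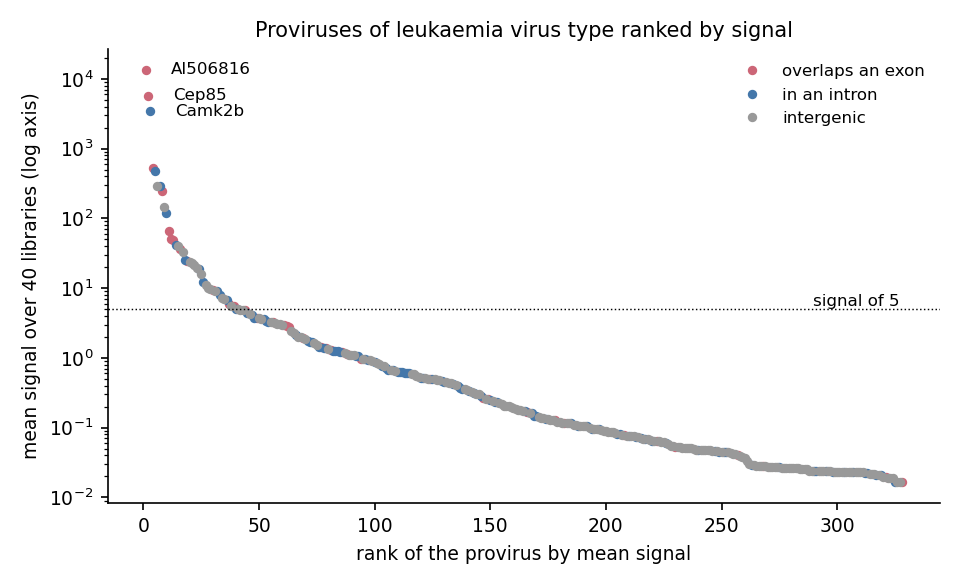
Mean signal over the 40 libraries (log axis) of each provirus with signal above 0, against its rank; colours give the place relative to annotated genes, and the dotted line is the mean of 5 needed for a test. The provirus at 0 is not drawn. AI506816, Cep85 and Camk2b stand above the rest, and the next provirus has a mean of 534.

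Group means of the summed signal of all 407 copies lay between 21086 in Balb/c-2 and 32386 in CBA, and AI506816 and Camk2b supplied different shares of it along the passages. The sum averaged 27656 ± 11072 in the starting cells (SD over the libraries of a group, here and below). The F passages had 24012 ± 6279 (F0), 29135 ± 2842 (F1) and 25025 ± 3369 (F2), and the N2 passages 24702 ± 2431 (N2.1), 24222 ± 838 (N2.2) and 23103 ± 3955 (N2.3). The later tumours had 24042 ± 2290.2 (Balb/c-1), 21086 ± 1307 (Balb/c-2), 25136 ± 81.8 (its repeat libraries) and 32386 ± 2676 (CBA). That was 1.03% of all repeat signal in Balb/c-2, the lowest group, and 1.7% in F1, the highest. The AI506816 provirus supplied 67.1% ± 13.9 of it in YUMM1.7 cells, 56.0% ± 11.2 in F2, 30.1% ± 2.35 in N2.3 and 44.6% ± 8.58 in CBA. The Camk2b provirus supplied 0.800% ± 0.0842 in YUMM1.7 cells, 5.08% ± 2.81 in F2, 18.4% ± 2.89 in N2.3 and 25.5% ± 5.02 in CBA. Shares of a total are not independent of each other, so these are given as a description and without a test.

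Summed by provirus, 41 of the 329 had a mean of at least 5 and were tested, in a table in which the sums replace their copies. Limma called 1 provirus in F2 against F0, beside 0.0361% of all features of that table, and 4 in N2.1 against F2, beside 9.7%. It called 2 in N2.3 against N2.1, beside 1.35%, and 4 in Balb/c-1 against N2.3, beside 2.2%. It called 2 in CBA against Balb/c-2 rep2, beside 5.93%, and 6 in CBA against YUMM1.7 cells, beside 10.4%. It called 0 in F0 against YUMM1.7 cells (1 at an unadjusted p under 0.05, 0 called by edgeR and 0 by DESeq2; 0% of all features), 0 in Balb/c-2 against Balb/c-1 (10 at an unadjusted p under 0.05, 0 called by edgeR and 0 by DESeq2; 0%) and 0 in Balb/c-2 rep2 against Balb/c-2 (3 at an unadjusted p under 0.05, 0 called by edgeR and 0 by DESeq2; 0.232%). Where the text gives a fold change of a provirus, it is that of its sum.

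The provirus in the Camk2b intron had the widest range of the 3. Its signal was 349, 205 and 127 in the YUMM1.7 cultures and 162, 119, 345 and 177 in F0 tumours A to D. It was 338, 1626, 1009.7 and 599.9 in the F1 tumours and 1743, 939, 947, 1816 and 629.7 in F2 tumours A to E. N2.1 tumours A to E had 5535, 6571, 354, 5174 and 2034. It was 5039.6, 6077 and 5175 in the N2.2 tumours and 4016, 4332 and 4195 in those of N2.3. The F1 values overlap both F0 and F2, and every F2 tumour lies above every F0 tumour. N2.1 tumour C lies below every F2 tumour, while the other 4 N2.1 tumours lie above all of them. In Balb/c-1 the signal was 4445, 6057, 6943 and 7148, in Balb/c-2 4922, 4248 and 3626 and in the repeat libraries of those tumours 6641, 4734 and 4528. In CBA it was 7855, 9809.7 and 6975. From N2.2 on, no tumour was below 3626, and 2 of the 3 CBA tumours were above all other libraries. Group means ran, from the lowest, F0 (201), YUMM1.7 cells (227), F1 (893), F2 (1215), N2.1 (3934), N2.3 (4181), Balb/c-2 (4265), Balb/c-2 rep2 (5301), N2.2 (5431), Balb/c-1 (6148) and CBA (8213). Each group overlaps its neighbour in this order, F2 and N2.1 only through N2.1 tumour C. In these bulk libraries, here and below, fewer cells with a transcript and less transcript per cell cannot be told apart.

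**Figure D2:**
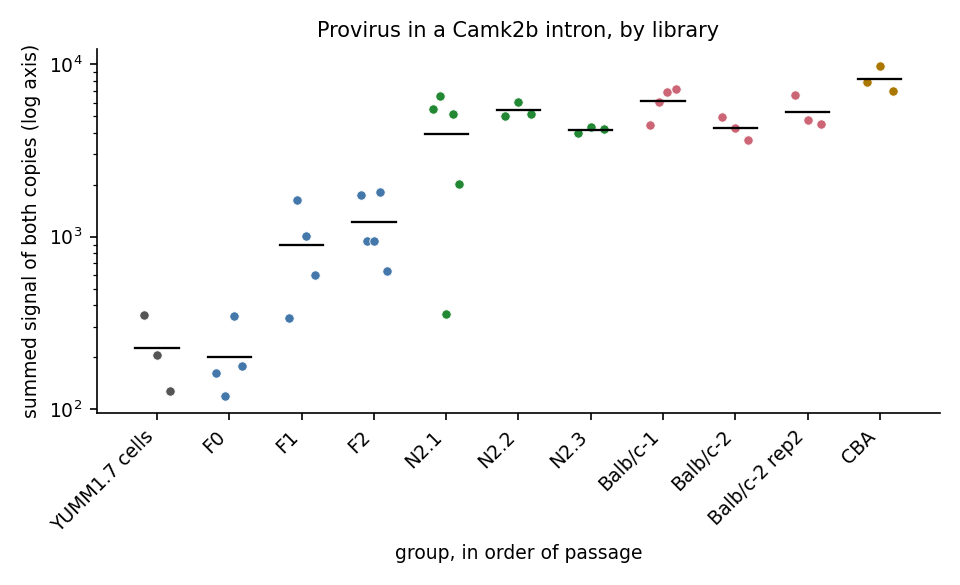
Summed signal of both copies in the Camk2b intron (log axis), 1 point per library and a bar at the group mean, with groups in order of passage; grey marks the starting cells, blue the F passages, green N2, red Balb/c and brown CBA. F2 lies above F0, and N2.1 tumour C, at 354, lies apart from the other N2.1 tumours.

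F2 against F0 sets the last F passage against the first. In this comparison 0.0391% of all tested copies were called by limma (adjusted p under 0.05), and 2 of the 43 tested copies of the set were, both of them the Camk2b pair and both higher in F2. The pair was singled out because of this very difference in an earlier reading of these data, so it is a description and not an independent test. As a provirus it averaged 1215 ± 532 in F2 and 201 ± 99.4 in F0, a ratio of 6.06 (log2 fold change 2.59, SE 0.47, adjusted p = 0.0429). The call was lost with the 2 groups fitted alone (adjusted p = 0.149). It was also lost without F0 tumour B (0.109), F0 tumour D (0.0608), F2 tumour A (0.0706) or F2 tumour D (0.134), with log2 fold changes of 2.38 to 2.59 in these fits. The count of copies fell to 1 without F2 tumour B and to 0 in those 5 fits. Over the 43 copies the median log2 fold change was 0.23, beside -0.12 over all tested copies.

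Between CBA and the starting cells the Camk2b provirus had the largest ratio of the 6 proviruses called: 8213 ± 1451 in CBA and 227 ± 113 in YUMM1.7 cells, a ratio of 36.1 (log2 fold change 5.27, SE 0.57, adjusted p = 2.35e-08). The groups do not overlap, and the call was kept in all 6 other settings and all 6 fits that left out a library (adjusted p up to 2.01e-05). The step from F2 to N2.1 was not called for the provirus (log2 fold change 1.25, SE 0.44, adjusted p = 0.0642), although its MuLV-int copy was (log2 fold change 1.37, SE 0.45, adjusted p = 0.0432; a call lost with TMM factors, 0.108, without the filter, 0.125, and with the 2 groups alone, 0.184). The call of that copy was also lost without F2 tumour B, C or E or N2.1 tumour A, B, D or E (adjusted p of 0.0523 to 0.145). The value of the provirus depended on N2.1 tumour C, and without it the log2 fold change was 1.98 (adjusted p = 8.27e-05). The provirus was also called by edgeR (1.47, adjusted p = 0.0221), by DESeq2 (1.5, 0.00757) and by limma without F2 tumour A (1.41, 0.0473) or F2 tumour D (1.42, 0.0496). In the other 6 comparisons it was not called. The log2 fold change was -0.17 in F0 against YUMM1.7 cells (adjusted p = 0.955), 0.65 in N2.3 against N2.1 (0.654) and 0.53 in Balb/c-1 against N2.3 (0.652). It was -0.51 in Balb/c-2 against Balb/c-1 (0.791), 0.30 in Balb/c-2 rep2 against Balb/c-2 (0.987) and 0.64 in CBA against Balb/c-2 rep2 (0.547).

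Signal around the Camk2b provirus was far lower. The 7 other repeat copies within 5 kb summed to 12.8 ± 8.70 in CBA (7.32 to 22.8) and 1.29 ± 1.12 in YUMM1.7 cells (0 to 1.94), so they too were higher in CBA, without overlap. In F2 they summed to 2.94 ± 2.83 and in F0 to 1.43 ± 0.596, and these ranges overlap. The 4 repeat copies in Camk2b exons summed to 10.6 ± 9.81 in CBA and 0.645 ± 1.12 in YUMM1.7 cells, a level of a few reads. The 2 copies of the pair followed each other with a Spearman correlation of 0.988 over the 40 libraries; they are parts of the same element and may share reads. The 5 copies elsewhere in the genome with the most similar order of libraries had correlations of 0.83 to 0.85. They were L1MdMus_I in an exon of Gm28188, L1MdA_V in an intron of Gm773, the VL30 copy MMVL30-int with RLTR6_Mm at chr4:149433980-149437854, MYSERV-int in Gm11033 and MurSatRep1 in an exon of Zfp882. All points share libraries and passage order, so these correlations describe the 40 libraries and carry no test.

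F0 against YUMM1.7 cells sets cells cultured from F0 tumours against the starting line. It gave no call among the 43 copies with limma, edgeR or DESeq2, with 2 copies at an unadjusted p under 0.05, and 0% of all tested copies were called. Over the set the median log2 fold change was -0.03, beside 0.13 over all tested copies. The AI506816 provirus had 8985, 22839.9, 15497 and 15433 in F0 and 31602, 17696 and 9323 in the YUMM1.7 cultures, and culture 1 has the highest value of the series. The Cep85 provirus had 3836, 5024, 4398 and 6696 in F0 and 3674, 4134 and 5683 in the cultures. Both groups overlap for both proviruses.

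N2.1 against F2 covers the move to the first of the N2 passages. Here 9.7% of all tested copies were called, and 5 of the 43 copies of the set, 4 higher and 1 lower in N2.1. The proviruses in Rab6b, Ntmt1 and AU020206 rose and the single LTR on chromosome 17 fell; the fifth copy called is the Camk2b part given above. The split of the calls depended on the scaling. Over all copies 2439 were higher and 783 lower, and with TMM factors 1378 were higher and 1325 lower. In the set, 2 were higher and 4 lower with TMM factors. The median of the set was -0.29, beside 0.26 over all tested copies.

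In an intron of Rab6b, which encodes a Golgi trafficking GTPase, 4 RLTR4_MM-int copies at chr9:103171549-103175915 had 40.3, 37.8, 16.6, 30.9 and 24.8 in N2.1 tumours A to E. In F2 they had 10.0, 3.28, 16.9, 9.56 and 4.54. N2.1 tumour C lies just below the highest F2 tumour and the other 4 lie above all of F2. The ratio of means was 3.40 (log2 fold change 1.78, SE 0.37, adjusted p = 0.0012), and the call was lost only where no filter on low copies was applied (adjusted p = 0.107). The mean was 66.9 in N2.2, 45.8 in N2.3 and 21.3 in Balb/c-1.

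The provirus in an Ntmt1 exon had 66.3, 101, 57.2, 80.4 and 72.2 in N2.1, against 48.3, 27.3, 44.3, 18.2 and 35.4 in F2. All N2.1 tumours lie above all F2 tumours, with a ratio of means of 2.18 (log2 fold change 1.15, SE 0.29, adjusted p = 0.00891; 0.221 without the filter). The copy in the AU020206 intron had 488, 325, 643, 452 and 757 in N2.1 and 282, 142, 352, 268 and 274 in F2, and the lowest N2.1 tumour, B, lies below the highest F2 tumour, C. Its ratio of means was 2.02 (log2 fold change 1.01, SE 0.27, adjusted p = 0.0119). That call was lost with TMM factors (adjusted p = 0.0575), in edgeR (0.0615) and without F2 tumour B (0.07). The LTR at chr17:35000213-35000742 had 344, 173, 262, 225 and 178 in N2.1 and 484, 489, 614, 404 and 323 in F2, with N2.1 tumour A above the lowest F2 tumour (log2 fold change -0.98, SE 0.32, adjusted p = 0.0444). Its call was lost without the filter (0.139) and in 8 of the 10 fits that left out a library (adjusted p of 0.0535 to 0.119), all but those without F2 tumour E or N2.1 tumour A. The number of copies called was 2 without F2 tumour B, 3 without F2 tumour C or N2.1 tumour D and 9 without N2.1 tumour C.

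The provirus in Galnt11 (chr5:25230699-25239670) was not called, at 253 ± 36.8 in N2.1 and 325 ± 90.6 in F2, and the exon copies of its host gene rose. These averaged 176 ± 12.8 in N2.1, against 109 ± 9.67 in F2 (limma over genes, log2 fold change 0.69, SE 0.11, adjusted p = 3.67e-05). The difference between these 2 changes was not tested. The 2 highest proviruses were not called either: AI506816 averaged 13284 ± 1605 in N2.1 and 14156 ± 3983 in F2, and Cep85 4741 ± 1344 in N2.1 and 6541 ± 2363 in F2.

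N2.3 against N2.1 compares the ends of the N2 passages, and the 2 highest proviruses moved in opposite directions. Here 1.4% of all tested copies were called, and 4 of the 43 copies of the set: the 3 parts of the Cep85 provirus, all higher, and AI506816, lower in N2.3. The Cep85 provirus had 7526, 8740.0 and 12474 in N2.3, against 3631, 4899, 6232, 3131 and 5814 in N2.1. The groups do not overlap, and the ratio of means was 2.02 (log2 fold change 1.03, SE 0.22, adjusted p = 0.00937). The call was lost with the 2 groups fitted alone (adjusted p = 0.108) and without N2.3 tumour C, the highest library of the series (log2 fold change 0.82, 0.0867). The AI506816 provirus had 6676, 5784 and 8382 in N2.3, against 10948, 14726, 14832, 13239 and 12676 in N2.1, with N2.2 between at 10809, 8760.3 and 10224. No N2.3 tumour reaches the lowest N2.1 tumour (log2 fold change -0.94, SE 0.25, adjusted p = 0.0435; ratio 0.523). This call lay near the threshold and was lost with TMM factors (0.0795), in edgeR (0.0897), in DESeq2 (0.0501) and with the 2 groups alone (0.0609). It was also lost without N2.1 tumour B, C, D or E or N2.3 tumour A or B (0.0578 to 0.206). The number of copies called was 2 without N2.1 tumour D or N2.3 tumour B and 1 without N2.3 tumour C. The median of the set was 0.30, beside -0.04 over all tested copies. Over all copies 241 were higher and 225 lower, and 207 and 152 with TMM factors.

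Balb/c-1 against N2.3 sets the first passage named for Balb/c against the last N2 passage. Here 2.2% of all tested copies were called, and 5 of the 43 copies of the set: Chd9 and AU020206 higher, and 2 parts of Cep85 and the chromosome 18 provirus lower in Balb/c-1. The lower calls depended on the scaling: with TMM factors, edgeR and DESeq2 the set had 2 higher and 0 lower. Over all copies 303 were higher and 429 lower, and 433 and 293 with TMM factors. The provirus that overlaps a Chd9 exon had 367, 245, 290.1 and 314 in Balb/c-1, against 167, 161 and 77.2 in N2.3. The groups do not overlap (log2 fold change 1.23, SE 0.24, adjusted p = 0.00389; ratio 2.25), but N2.3 tumour C lies well below the other 2. Without it the call was lost (log2 fold change 0.87, adjusted p = 0.0763), as it was with the 2 groups alone (0.0821). The AU020206 copy had 775, 614, 476 and 519 in Balb/c-1, against 313, 246 and 238 in N2.3, again without overlap (log2 fold change 1.15, SE 0.32, adjusted p = 0.0484; ratio 2.24). Its call was lost on leaving out any of the 7 libraries (0.06 to 0.159).

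The Cep85 provirus had 4693, 6036, 5316 and 4429 in Balb/c-1, below the N2.3 values given above (log2 fold change -0.88, SE 0.23, adjusted p = 0.0338). The provirus in Gm10524 (chr18:82693551-82702430) had 209, 268, 241 and 229 in Balb/c-1, against 461, 315 and 444 in N2.3 (log2 fold change -0.76, SE 0.21, adjusted p = 0.0467). Neither pair of groups overlaps. Both calls were lost with TMM factors (adjusted p = 0.13 and 0.145), edgeR, DESeq2 and the 2 groups alone, and each in 5 of the 7 fits that left out a library. The Cep85 call was lost without N2.3 tumour B or C or Balb/c-1 tumour A, C or D (0.0605 to 0.206), and that of Gm10524 without N2.3 tumour A or C or Balb/c-1 tumour A, C or D (0.0784 to 0.168). The number of copies called was 3 without N2.3 tumour A or B, 2 without Balb/c-1 tumour C, 1 without Balb/c-1 tumour A or D and 0 without N2.3 tumour C. The median of the set was -0.42, beside -0.17 over all tested copies.

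Balb/c-2 against Balb/c-1, the next passage, gave 0 calls in the set with limma, edgeR and DESeq2, with 10 of the 43 copies at an unadjusted p under 0.05 and 0% of all tested copies called. Balb/c-2 rep2 against Balb/c-2, the same 3 tumours in both, gave 0 calls in the set with the same 3 tools. In limma 3 copies had an unadjusted p under 0.05, and 0.232% of all tested copies were called. These fits did not use the pairing of libraries by tumour, and limma with the tumours as a block also gave 0 calls in the set. In those pairs the AI506816 provirus had 10206, 12832 and 14298 in the repeat libraries of tumours A, B and C and 8527, 11059.9 and 11548 in their originals, higher in the repeat library of each tumour. The copy in AU020206 had 773, 1083 and 439 in the repeat libraries and 471, 1106 and 427 in the originals, with tumour B the highest in both. The intergenic provirus at chr10:5717715-5726753 had 61.2, 26.5 and 265 in the repeat libraries and 37.5, 23.5 and 245 in the originals, with tumour C the highest in both. At both loci the 3 tumours had the same order in the repeat libraries as in the originals.

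CBA against Balb/c-2 rep2 sets the last passage against repeat libraries of the one before it, all 6 with run names. These names differ: Balb/c-2 rep2 tumour B has flow cell HKMGWDSX7 and lane L1. Balb/c-2 rep2 tumours A and C and all CBA tumours have HKMHTDSX7 and L3. Here 5.93% of all tested copies were called, and 2 of the 43 copies of the set, 1 in each direction. The provirus at chr10:5717715-5726753 lay between genes and had 2.09, 0 and 1.17 in CBA. That was far below the Balb/c-2 rep2 values given above, although those differ widely among themselves, and all 3 CBA tumours lie below all of them. It rests on 3 recovered reads in the 3 CBA libraries and 245 in the 3 Balb/c-2 rep2 libraries, a ratio of 0.0104 after scaling by the factor of each library (exact 95% interval 0.00213 to 0.0307, counting error only). Most of these reads come from Balb/c-2 rep2 tumour C. Without it 70 reads and a mean of 43.9 are left in that group, and the ratio is 0.026 (0.00524 to 0.0792). It is 0.00533 without CBA tumour A and 0.0157 without CBA tumour B. The fitted log2 fold change of -5.35 (SE 1.06, adjusted p = 0.00205) depends on the pseudocount. The call was kept in all 7 other settings and all 6 fits that left out a library. The mean was 2.29 in N2.3, 12.3 in Balb/c-1 and 102 in Balb/c-2, and outside the 2 Balb/c-2 groups the highest library was F2 tumour D at 64.1.

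The copy that overlaps an exon of Kif24, a kinesin gene, had 38.7, 38.0 and 27.0 in CBA, against 10.6, 13.3 and 12.1 in Balb/c-2 rep2, with no overlap (log2 fold change 1.44, SE 0.38, adjusted p = 0.0181; ratio 2.88). Its call was lost without the filter (adjusted p = 0.163) and without Balb/c-2 rep2 tumour A or C or CBA tumour A or B (0.0606 to 0.0732). The other repeat copies in Kif24 exons (around chr4:41445502-41451836) stood at 109 ± 16.9 in CBA and 38.1 ± 11 in Balb/c-2 rep2. The number of copies called was 1 without Balb/c-2 rep2 tumour A or CBA tumour A or B and 4 without Balb/c-2 rep2 tumour B. The median of the set was 0.37, beside 0.20 over all tested copies.

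CBA against the YUMM1.7 cells sets the last passage against the start. All 3 CBA libraries have run names and no YUMM1.7 culture does, so run and passage cannot be told apart here. Here 10.4% of all tested copies were called, and 8 of the 43 copies of the set, 5 higher and 3 lower in CBA (3 and 3 with TMM factors). Over all copies 2168 were higher and 1278 lower, and 1594 and 1706 with TMM factors. The 5 higher ones are the Camk2b pair, AU020206, part of the Serinc3 element and a copy at chr5:109901526-109908014. The 3 lower ones are the proviruses in Gm10524, in Def8 and at chr1:182257120-182266100. The AU020206 copy had 671, 713 and 1379.8 in CBA, against 282, 206 and 93.7 in YUMM1.7 cells, with no overlap (log2 fold change 2.3, SE 0.35, adjusted p = 1.14e-05; ratio 4.75). This call was kept in every other setting and every fit that left out a library. The Serinc3 element at chr2:163642652-163643240, in an exon of a membrane protein gene known from human cells for lowering the infectivity of some retroviruses, had 64.9, 71.7 and 49.2 in CBA, against 36.8, 33.3 and 19.3 in YUMM1.7 cells (log2 fold change 1.06, SE 0.33, adjusted p = 0.0307). It was lost with TMM factors (0.0929), edgeR (0.108), DESeq2 (0.0743), the 2 groups alone (0.0661), no filter (0.266) and without YUMM1.7 culture 3 or CBA tumour A or B (0.0875 to 0.188). The copy at chr5:109901526-109908014 (log2 fold change 1.06, SE 0.35, adjusted p = 0.0473) was lost in all 6 other settings and without YUMM1.7 culture 1 or 2 or CBA tumour A or B (adjusted p of 0.0987 to 0.184), and its provirus was not called.

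Of the lower ones, the Gm10524 provirus on chromosome 18 had 388, 296 and 345 in CBA, against 1165, 1108 and 839 in YUMM1.7 cells (log2 fold change -1.59, SE 0.23, adjusted p = 4.99e-06; ratio 0.330). The provirus at chr1:182257120-182266100, whose primer binding site is shown above, lies between genes in GENCODE M21, although the RefSeq window of Gm33887 lies in it. It had 12.6, 14.1 and 15.2 in CBA, against 60.0, 46.4 and 33.8 in YUMM1.7 cells (log2 fold change -1.64, SE 0.35, adjusted p = 0.0012, and 0.149 without the filter). The provirus in an intron shared by Def8 and Gm20388 at chr8:123425804-123434531 had 4.18, 5.43 and 19.9 in CBA, against 296, 75.7 and 47.3 in YUMM1.7 cells (log2 fold change -3.54, SE 0.80, adjusted p = 0.00242; ratio 0.0705). None of the 3 pairs of groups overlaps, although YUMM1.7 culture 1 stands far above the other cultures at the Def8 locus. All 3 calls were kept in every fit that left out a library, and those of Gm10524 and Def8 in every other setting. At the Def8 locus the starting cells averaged 139.7, the F passages 74.5 (F0), 62.3 (F1) and 47.8 (F2), and the N2 passages 41.1 (N2.1), 20.2 (N2.2) and 26.6 (N2.3). The later tumours averaged 7.23 (Balb/c-1), 9.53 (Balb/c-2), 6.99 (its repeat libraries) and 9.85 (CBA). Neighbouring groups in this order overlap at every step.

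**Figure D3:**
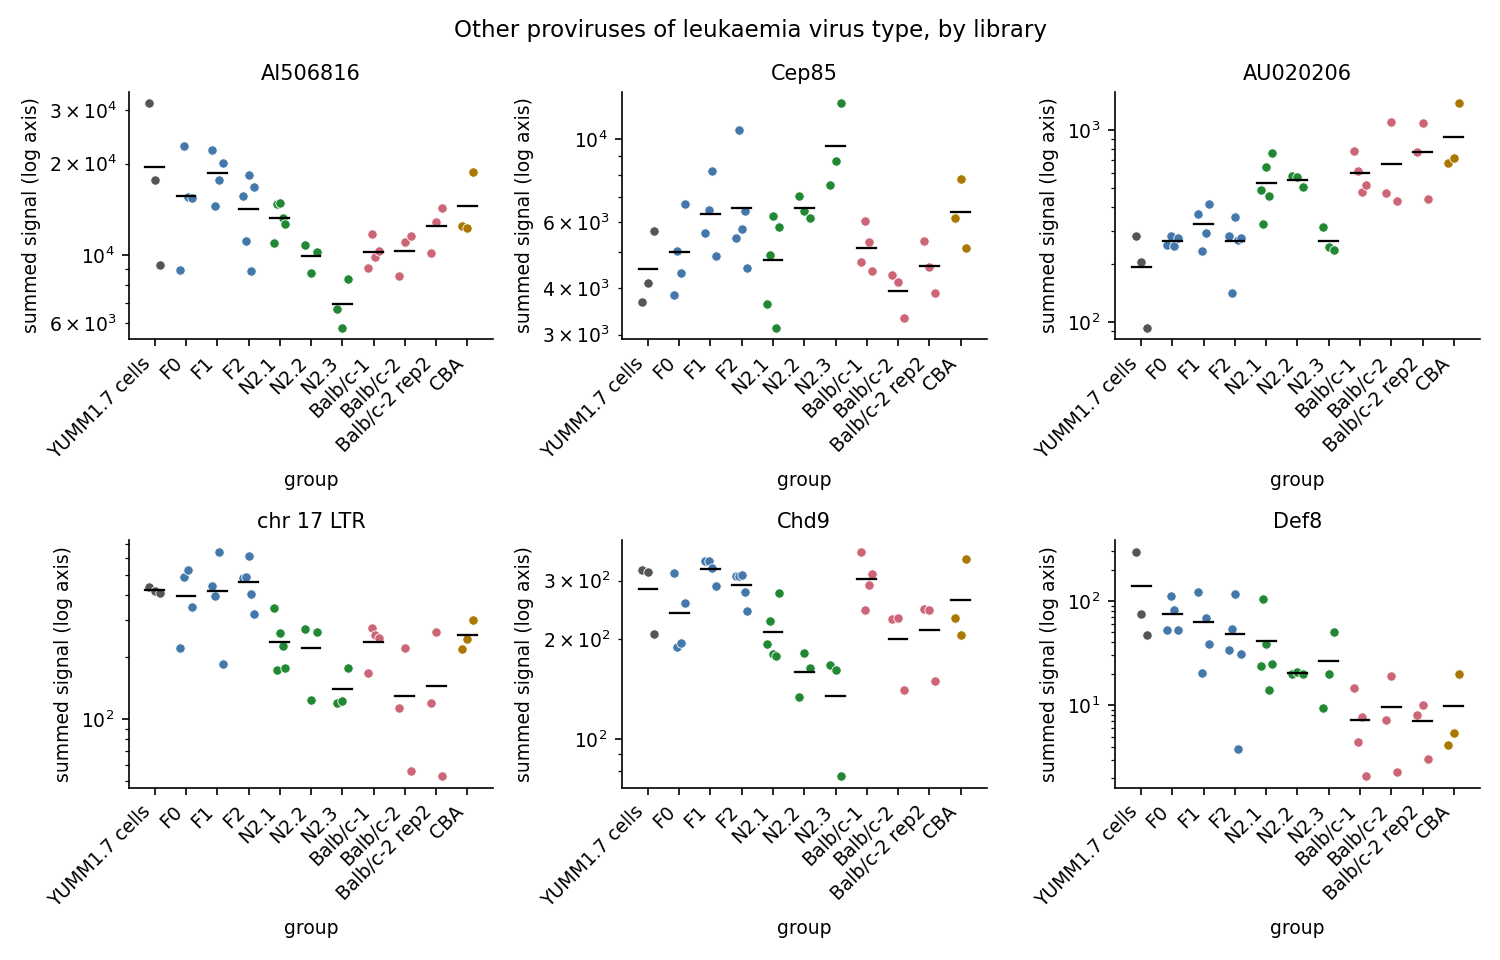
Summed signal (log axes) of 6 proviruses, 1 point per library and a bar at the group mean, with groups in order of passage; grey marks the starting cells, blue the F passages, green N2, red Balb/c and brown CBA. AI506816 is lowest in N2.3, Cep85 highest in N2.3, AU020206 higher from N2.1 on except in N2.3, and Def8 lowest in the Balb/c and CBA groups.

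**Figure D4:**
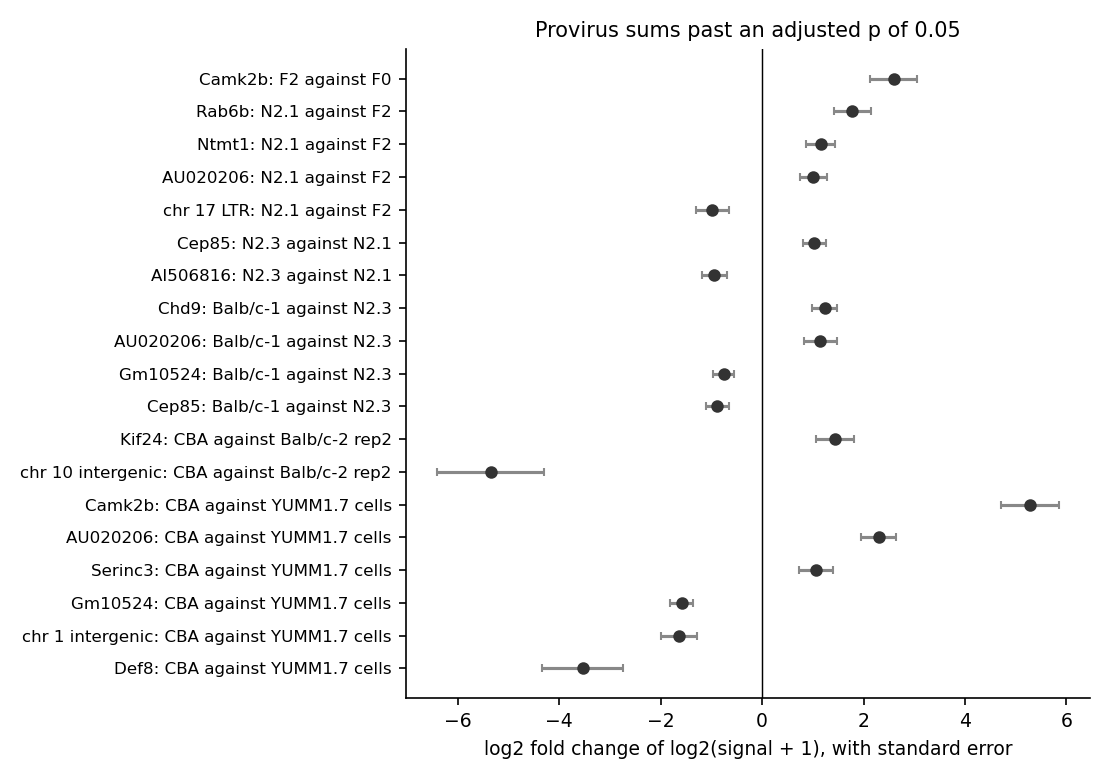
Log2 fold change of log2(signal + 1) with its standard error (bars) for each provirus sum past an adjusted p of 0.05 in limma, the group named before "against" relative to the one after it. The estimates run from -5.35 (the intergenic provirus on chromosome 10, CBA against Balb/c-2 rep2) to 5.27 (Camk2b, CBA against YUMM1.7 cells).

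The proviruses differed in how far the repeats beside them moved with them.  Around the AU020206 copy (chr7:75777623-75779900) the 21 other copies within 5 kb summed to 1023 ± 493 in CBA and 278 ± 146 in YUMM1.7 cells, more than the provirus itself. The exon copies of AU020206 rose with it, at 1786 ± 716 in CBA and 626 ± 239.8 in YUMM1.7 cells (limma over genes, log2 fold change 1.51, SE 0.29, adjusted p = 0.000352). They were not called in N2.1 against F2 (0.24, adjusted p = 0.507) or in Balb/c-1 against N2.3 (0.75, 0.0887), where the provirus was. The difference between provirus and exon copies was not tested in either comparison, and both of these provirus calls were lost in some other fits. Around the Rab6b copies (chr9:103171549-103175915) the 7 other copies summed to 37.4 ± 14.2 in N2.1 and 13.3 ± 3.81 in F2, again more than the copies themselves. At Cep85 (chr4:134159391-134164702) the 27 other copies within 5 kb stood at 18 ± 10.5 in N2.3 and 13.3 ± 6.85 in N2.1, and the 2 exon copies at 91.1 ± 19.5 in N2.3 and 82.3 ± 10.2 in N2.1, overlapping in both cases. At AI506816 (chr5:23700579-23709245) the 14 other copies stood at 81.9 ± 19.5 in N2.3 and 163 ± 44.8 in N2.1, without overlap. The single LTR on chromosome 17 (chr17:35000213-35000742) lay among copies of far higher signal, 8578 ± 1653 in N2.1 and 11712 ± 2939 in F2. At the chromosome 10 provirus (chr10:5717715-5726753) the 9 other copies were at 0 in CBA, 9.56 ± 11.4 in Balb/c-2 rep2 and 25.7 ± 26.3 in Balb/c-2. Whether transcription from outside contributes to the signal of these copies was not tested.

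**Figure D5:**
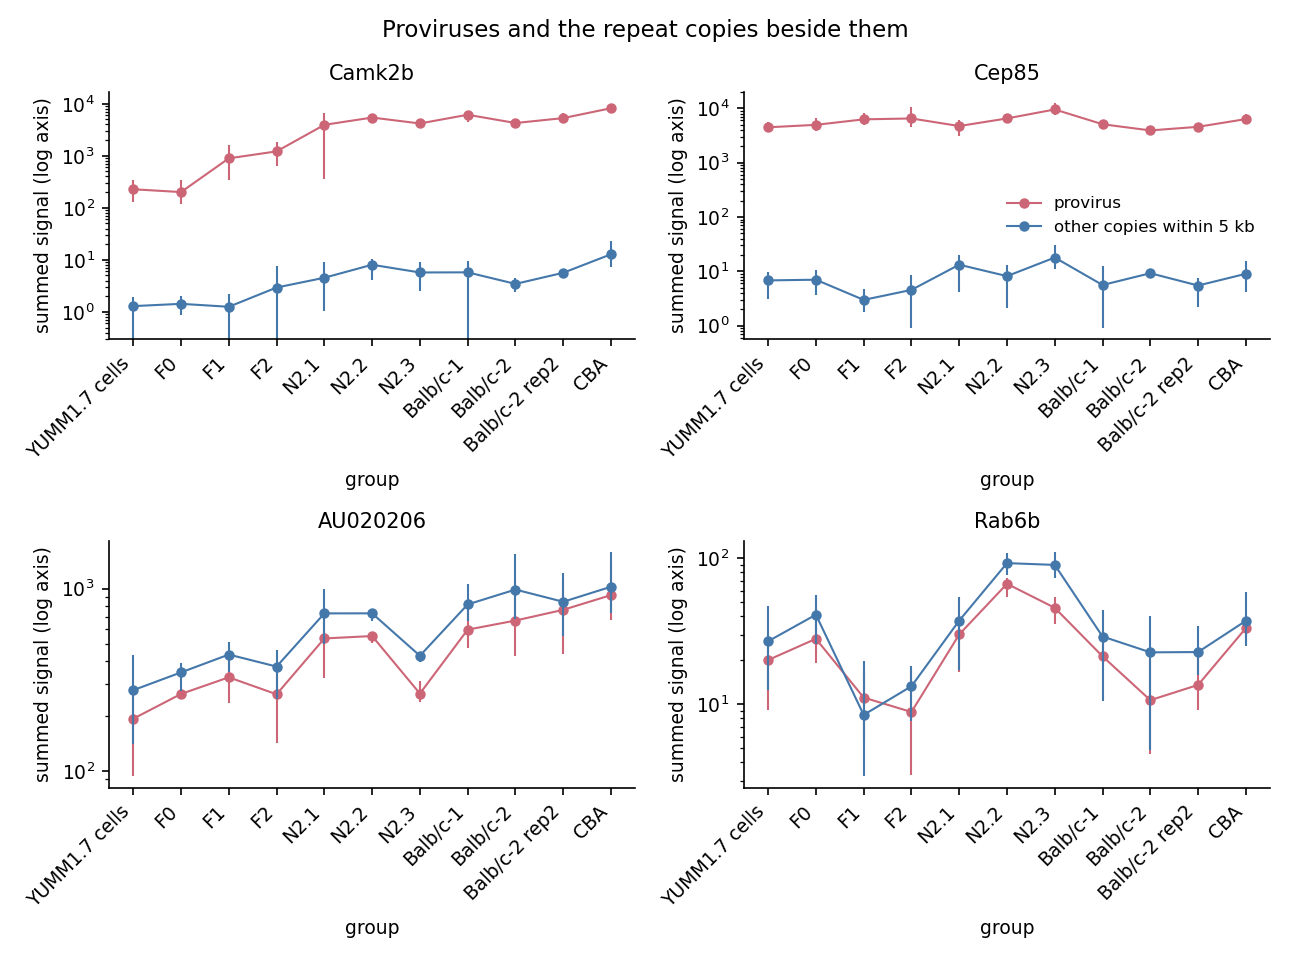
Mean summed signal (log axes) of 4 proviruses and of the other repeat copies within 5 kb of them, with groups in order of passage; vertical lines join the lowest and the highest library, and run to the axis where the lowest is 0. Camk2b and Cep85 stand far above their surroundings, whereas AU020206 lies below its surroundings in every group and Rab6b in every group but F1.

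Genes that silence such copies were read through repeat copies in their exons, and 21 of 28 listed genes could be tested. In N2.1 against F2, 5 of the 21 rose and none fell, with 15.1% of all 7634 genes called. Zfp809 stood at 614 ± 43.1 in N2.1 and 409 ± 67.8 in F2 (log2 fold change 0.60, SE 0.10, adjusted p = 0.000129), and Uhrf1, which guides maintenance DNA methylation, at 166 ± 26.5 in N2.1 and 66.4 ± 31.7 in F2 (log2 fold change 1.42, SE 0.31, adjusted p = 0.00177). The other 3 were the chromatin remodeller gene Atrx (173 ± 31.0 in N2.1 and 113 ± 17.7 in F2; log2 fold change 0.60, SE 0.14, adjusted p = 0.00356), the Setdb1 partner gene Atf7ip (adjusted p = 0.022) and the heterochromatin protein gene Cbx5 (0.0461; 0.357 with TMM factors). With TMM factors the log2 fold changes were lower, at 0.38 for Zfp809 (adjusted p = 0.0271) and 1.20 for Uhrf1 (0.00799). They were 0.39 for Atrx (0.0488) and 1.61 for Atf7ip (0.0383), so Atrx lay close to the threshold. The calls of Zfp809, Uhrf1 and Atrx were kept without any library. That of Atf7ip was lost without F2 tumour B or N2.1 tumour A (adjusted p = 0.0685 to 0.107), and that of Cbx5 without F2 tumour A, B or D or N2.1 tumour A, C, D or E (adjusted p = 0.0675 to 0.161). The list's median log2 fold change was 0.34, beside 0.12 over all genes.

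In CBA against Balb/c-2 rep2, 5 rose (Atrx, Uhrf1, Cbx1, Cbx3 and Cbx5) and Zfp809 fell, with 12.5% of all genes called. Zfp809 stood at 433 ± 11.3 in CBA and 614 ± 56.5 in Balb/c-2 rep2 (log2 fold change -0.50, SE 0.13, adjusted p = 0.0129), and Uhrf1 at 120.2 ± 21.1 in CBA and 24.8 ± 14.7 in Balb/c-2 rep2 (log2 fold change 2.38, SE 0.40, adjusted p = 0.000323). The calls of Atrx and Uhrf1 were kept without any library. That of Zfp809 was lost without Balb/c-2 rep2 tumour C or CBA tumour C (adjusted p = 0.0504 to 0.0901) and that of Cbx1 without Balb/c-2 rep2 tumour B or C or CBA tumour B or C (adjusted p = 0.0725 to 0.123). That of Cbx3 was lost without Balb/c-2 rep2 tumour B or C or CBA tumour A or C (adjusted p = 0.0547 to 0.15) and that of Cbx5 without Balb/c-2 rep2 tumour C or CBA tumour A (adjusted p = 0.0581 to 0.0775), and Cbx5 also with TMM factors (0.0582). The list's median log2 fold change was 0.65, beside 0.05 over all genes. In CBA against YUMM1.7 cells 6 rose and none fell, with 18.3% of all genes called and medians of 0.80 over the list and 0.08 over all genes. They were Atrx (225 ± 11.8 in CBA and 115 ± 3.83 in YUMM1.7 cells; log2 fold change 0.96, SE 0.18, adjusted p = 0.000298), Cbx5 (6849 ± 599 in CBA and 2823 ± 851 in YUMM1.7 cells; log2 fold change 1.32, SE 0.22, adjusted p = 6.68e-05), Cbx3, Atf7ip, Pphln1 and Resf1. Of these, Atf7ip was lost without YUMM1.7 culture 1 (adjusted p = 0.0697), Cbx3 without CBA tumour C (adjusted p = 0.0759) and Resf1 without YUMM1.7 culture 3 (adjusted p = 0.082), and Resf1 also with TMM factors (0.0728).

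Uhrf1 differed between the repeat libraries and their originals, at 24.8 ± 14.7 in Balb/c-2 rep2 and 73.7 ± 8.34 in Balb/c-2 (log2 fold change -1.69, SE 0.40, adjusted p = 0.0416), where 0.472% of all genes were called and no other gene of the list was. Genes were fitted without the pairing of these libraries by tumour, so this p-value treats both libraries of a tumour as separate tumours. The call was lost with TMM factors (0.106) and without Balb/c-2 tumour A, B or C or Balb/c-2 rep2 tumour A or C (adjusted p = 0.105 to 0.324). In Balb/c-1 against N2.3, Cbx5 and Pphln1 rose and none fell (7.31% of all genes called). Of these, Cbx5 was lost without N2.3 tumour C or Balb/c-1 tumour C or D (adjusted p = 0.0748 to 0.289) and Pphln1 without N2.3 tumour C or Balb/c-1 tumour A, C or D (adjusted p = 0.0501 to 0.518). With limma 0 of the 21 were called in F0 against YUMM1.7 cells (2 at an unadjusted p under 0.05; 0.0131% of all genes called) and in F2 against F0 (2; 0.17%). It was also 0 in N2.3 against N2.1 (2; 3.89%) and in Balb/c-2 against Balb/c-1 (1; 0.0262%). Trim28 and Setdb1 were called in none of the 9 comparisons, which does not show that they were unchanged.

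Of 12 listed genes that restrict or sense retroviruses, 8 could be tested. Apobec3, a restriction factor against mouse gammaretroviruses, itself carries an LTR of the set within an annotated exon at chr15:79895563-79896093 (RLTR4_Mm, 531 bases). The LTR had too little signal for a test and was picked out after its values were seen. It was at 0 in all YUMM1.7 and F0 libraries and at most 11.2, in Balb/c-2 tumour B. The other repeat copies in Apobec3 exons had 812, 1046 and 1191 in CBA, against 63.9, 84.8 and 58.9 in YUMM1.7 cells, with no overlap. Their group means were 105 (F0), 158 (F1), 142 (F2), 297 (N2.1), 734 (N2.2), 527 (N2.3), 847 (Balb/c-1), 1026 (Balb/c-2) and 914 (its repeat libraries). The test on all exon copies gave log2 fold change 3.86, SE 0.49, adjusted p = 7.98e-07, and the call was kept with TMM factors and without any library. In N2.1 against F2 Apobec3 also rose (log2 fold change 1.21, SE 0.38, adjusted p = 0.0279). The call was lost with TMM factors (log2 fold change 0.995, adjusted p = 0.0858) and without F2 tumour B, C or E or N2.1 tumour A or C (adjusted p = 0.0545 to 0.102).

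Mov10, an RNA helicase gene, rose in N2.1 to 211 ± 50.6, against 99.6 ± 32.3 in F2. The log2 fold change was 1.09 (SE 0.29, adjusted p = 0.00929), and 0.88 with TMM factors (0.048). Mov10 also rose in CBA against YUMM1.7 cells (adjusted p = 0.0185), a call lost with TMM factors (0.0571) and without YUMM1.7 culture 2 or CBA tumour B (adjusted p = 0.081 to 0.135). Adar, an RNA editing gene, rose in CBA (13.3 ± 1.88, against 3.29 ± 1.59 in YUMM1.7 cells; log2 fold change 1.79, SE 0.52, adjusted p = 0.0133), a call lost without YUMM1.7 culture 3 (adjusted p = 0.0718). It rose too in Balb/c-1 against N2.3 (adjusted p = 0.0161), a call lost without N2.3 tumour B or C or Balb/c-1 tumour C (adjusted p = 0.0577 to 0.0803). Zc3hav1, an antiviral RNA-binding protein gene, rose in Balb/c-1 against N2.3 (adjusted p = 0.0472), a call lost without N2.3 tumour A, B or C or Balb/c-1 tumour A, B or C (adjusted p = 0.059 to 0.227). It fell in CBA (846 ± 221, against 1708 ± 91.0 in Balb/c-2 rep2; log2 fold change -1.05, SE 0.25, adjusted p = 0.00605), a call lost without CBA tumour A (adjusted p = 0.0588). Of the 8 genes, 2 were higher in N2.1 against F2, where 15.1% of all genes tested were called in either direction, and 2 were higher in Balb/c-1 against N2.3 (7.31%). In CBA 1 was lower against Balb/c-2 rep2 (12.5%) and 3 were higher against YUMM1.7 cells (18.3%). With limma 0 were called in the other 5 comparisons, with 0 to 2 at an unadjusted p under 0.05. Of 4 receptor genes 2 could be tested. Slc7a1, the receptor of ecotropic viruses, stood at 915 ± 147 in CBA and 2031 ± 215 in Balb/c-2 rep2 (log2 fold change -1.16, SE 0.26, adjusted p = 0.00384), a call kept with TMM factors and without any library. It stood at 1111 ± 226 in N2.1 and 725 ± 169.5 in F2 (log2 fold change 0.62, SE 0.20, adjusted p = 0.0337), a call lost with TMM factors (0.206) and without F2 tumour B or D or N2.1 tumour A, B or D (adjusted p = 0.054 to 0.106). Xpr1, the receptor of xenotropic and polytropic viruses, was called in no comparison.

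Set against the other ERV1 copies, the class to which these belong, the number called was 2 of 43, beside 1 of 514, in F2 against F0. It was 5 of 43, beside 48 of 514, in N2.1 against F2, and 4 of 43, beside 28 of 514, in N2.3 against N2.1. In Balb/c-1 against N2.3 it was 5 of 43, beside 25 of 514. In CBA it was 2 of 43, beside 39 of 514, against Balb/c-2 rep2, and 8 of 43, beside 74 of 514, against YUMM1.7 cells. Copies of 1 provirus count more than once here, no difference between the classes was tested, and no comparison is drawn from it.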

How the data were processed

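The deposited table gives, per repeat copy and library, what proved to be whole reads divided by 1 factor per library; this signal is the unit used throughout, and every column is a library of the series. Per the submitters' processing notes the authors named mm10, featureCounts 1.5.0-p3, HISAT2 2.0.5 and StringTie 1.3.3b, with no role stated. Not given in the sources used here are the computation of the factors, the repeat annotation, the counting of multiply mapping reads and the use of strand. Whole reads were recovered from the deposited signal by the size of its smallest steps, and 100% of values came out whole within 0.1 of a read; they served for the edgeR and DESeq2 alternatives and for a counting interval. Intervals cover counting error only.

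The main test was limma 3.58.1 (R 4.3.3) on log2(signal + 1) with 11 group means over all 40 libraries and a trended prior, Benjamini-Hochberg adjusted over the 33215 copies with a mean signal of at least 5; fold changes are on that log2 scale, which understates those of low copies. Provirus sums were tested in the same table with their copies replaced by the sum (33213 features), and 7634 genes by the sum of repeat copies in their exons. Copies sharing a provirus are not independent. Copies were placed with GENCODE M21 and bedtools 2.31.1. Values were read with Python 3.11.15, pandas 2.3.3 and numpy 2.4.6, correlated with scipy 1.17.1 and plotted with matplotlib 3.10.9. The limma fit was also run on simulated counts with built-in changes. These had known library sizes and independent libraries, so they cannot test the deposited factors or the doubled Balb/c-2 tumours.

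Alternatives were DESeq2 1.42.0 and the quasi-likelihood test of edgeR 4.0.16 (both on recovered reads), TMM factors, a pseudocount of 5, no filter, the 2 groups alone, a replicate block and leaving out each library. Named copies were the 5 highest and 5 lowest fold changes among called copies of each comparison; the 12 proviruses with the highest mean signal and the Camk2b one were followed in every group. Members and lists were chosen with earlier results of these data known. Letters pair the 3 Balb/c-2 tumours with their repeat libraries: the labels name the same tumours, and deviations from group means correlated at 0.155 to 0.255 within a letter and at -0.195 to -0.0563 between letters over 33215 copies.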

Additional observations from a re-analysis of the deposited data

Results flagged for a closer look

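Of 95 groups of 4 or 5 libraries, over 19 proviruses, 6 had a library far from the others by Dixon's test, where chance alone gives 4.75 (1 in 20 groups). The intergenic provirus at chr4:133095957-133101623 had a signal of 168 in N2.1 tumour B and 84.8 to 95.6 in the other N2.1 tumours. The same tumour had 104 at the Def8 provirus (chr8:123425804-123434531), against 14.1 to 38.5 in the others. N2.1 tumour A had 32.7 at the provirus at chr10:5717715-5726753, against 2.65 to 5.27 in the others. The Rab6b copies (chr9:103171549-103175915) had 29.1 in Balb/c-1 tumour D and 18.3 to 19.4 in the others. The Serinc3 element (chr2:163642652-163643240) stood low in F0 tumour C, at 17.4 against 35.8 to 37.5 in the others, and in Balb/c-1 tumour B, at 25.6 against 35.4 to 36.9. The cause was not tested for any of them.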

How the results depend on the processing

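TMM factors brought the median log2 fold change of all copies to between -0.03 and 0.10 in the 9 comparisons, against -0.17 to 0.26 with the deposited factors. The 52 copy and provirus results include the Camk2b comparisons without a call. Most elements enter both as copy and as provirus, so these results are not independent. Of the 52, 39 kept direction and side of the threshold with TMM factors, 39 in edgeR, 42 in DESeq2, 51 with a pseudocount of 5, 38 without the filter and 32 with the 2 groups alone. The number of copies called moved in these settings. In F2 against F0 it was 0 with the 2 groups alone, and 0 to 2 on leaving out a library. In N2.1 against F2 it was 8 in edgeR, 10 in DESeq2 and 1 without the filter, and 2 to 9 on leaving out a library. In N2.3 against N2.1 it was 0 with the 2 groups alone, and 1 to 4 on leaving out a library. In Balb/c-1 against N2.3 it was 2 with TMM factors, 2 in edgeR, 2 in DESeq2 and 1 with the 2 groups alone, and 0 to 4 on leaving out a library. In Balb/c-2 against Balb/c-1 it was 1 without the filter. In CBA against Balb/c-2 rep2 it was 1 without the filter, and 1 to 4 on leaving out a library; in CBA against YUMM1.7 cells it was 6 to 8. Fewer libraries enter the fit of 2 groups alone, and more copies are adjusted for without the filter; otherwise the cause was not tested. The Camk2b log2 fold change, not called in either comparison, ran on leaving out a library from -0.53 to 0.19 in F0 against YUMM1.7 cells and from -0.082 to 0.97 in N2.3 against N2.1. It changed sign without YUMM1.7 culture 1 (0.19), F0 tumour B (0.038) or, in N2.3 against N2.1, N2.1 tumour C (-0.082). The summed signal of the set with TMM factors was 33087 in F1, 22464 in N2.2 and 26134 in Balb/c-2 rep2, more than 1 SD from the value given.

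With the letters as a replicate block, 31 of 37 results kept direction and side of the threshold, and 3 copies were called in Balb/c-1 against N2.3. The calls lost were those of AI506816 in N2.3 against N2.1 (adjusted p of the provirus 0.0538) and of Gm10524 (0.063) and AU020206 (0.0582) in Balb/c-1 against N2.3, each as copy and as provirus. No block was fitted for CBA against YUMM1.7 cells. The titles number the YUMM1.7 cultures, and the letters in their column names stand for cultures and not for tumours. The alternatives for the listed genes were chosen after seeing the data. Outside the Balb/c-2 pair the letters name different tumours and pair nothing. With 1 read worth 0.659 to 1.51, copies below a mean of 5 were not tested, which leaves 364 of the 407 copies without a test.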
